A study of Mus musculus with 12 samples.

Results

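miR-129 was measured as 3 mature miRNAs in colonies of AKR-2B mouse fibroblasts, out of 1281 mature miRNAs listed and 664 with at least 1 read. The members are mmu-miR-129-5p (mean 25811 CPM), the 5p arm that both miR-129 genes can give, and the 3p arm of each gene, mmu-miR-129-1-3p (91.9 CPM) and mmu-miR-129-2-3p (5624 CPM). CPM is the reads of a miRNA per 1000000 reads of its library. The members were chosen by their measured levels in these libraries, as an otherwise nerve-linked miRNA in fibroblast colonies, and by the 5p arm against the 3p arms. Levels and arm shares are therefore described and not tested.

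Cells of this established line were grown without attachment in soft agar with TGFβ at 25 ng/mL or with vehicle, and colonies were taken at days 2, 4 and 8. TGFβ is a growth factor that drives fibroblasts to make matrix and lets this line form colonies without attachment. Each condition and day gave 1 miRNA library, 6 in all, so a difference within a day has counting error and no replicate error. Library totals ran from 108716 to 1387785 reads, and the TGFβ library held 1.65, 1.98 and 3.34 times the reads of its vehicle library at days 2, 4 and 8. In these bulk samples, fewer cells of a type and less RNA per cell cannot be told apart. All 6 miRNAs of a fibroblast list had reads in every library. Their summed levels were 246387 to 271538 CPM with TGFβ and 162304 to 175234 CPM with vehicle. The members differed in direction. Scaled to library totals, miR-21a-5p and miR-214-3p were higher with TGFβ on each day, while miR-143-3p and miR-145a-5p were lower. With the scaling used for the comparisons below, miR-145a-5p was instead higher with TGFβ at days 4 and 8. The direction for miR-199a-3p and miR-125b-5p changed between days.

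A miRNA hairpin is cut by Drosha and Dicer into a short duplex whose arms, 5p and 3p, can each be loaded into an Argonaute protein. The loaded arm pairs with mRNAs mainly through its seed, bases 2 to 8, and lowers their translation and stability. miR-129 is known as a brain-enriched miRNA, studied in synapses and in seizure models, and MIR129-2 is known in human tumours as a gene silenced by promoter methylation.

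The hairpins are shown because they decide which reads can be tied to a gene. Both come from RefSeq (GRCm38.p6), written 5′ to 3′ with the arms in capitals.
Mir129-1: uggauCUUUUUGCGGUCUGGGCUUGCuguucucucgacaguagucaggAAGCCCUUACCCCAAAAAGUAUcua
Mir129-2: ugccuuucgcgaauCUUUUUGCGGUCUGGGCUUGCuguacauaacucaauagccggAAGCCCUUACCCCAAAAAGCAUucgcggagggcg

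Mir129-1 lies at chr6:29022619-29022691 on the plus strand (GRCm38) and is 73 bases long. It falls inside an exon of the long noncoding gene Gm3294, and its nearest protein-coding neighbour is Lep, the leptin gene, 37.5 kb away. Mir129-2 lies at chr2:94241364-94241453 on the minus strand (GRCm38) and is 90 bases long. It falls in an intron of the long noncoding gene Mir670hg, with Ttc17 as the nearest protein-coding gene at 59.3 kb. An opposite-strand miRNA gene, Mir129b, lies across Mir129-2 at chr2:94241378-94241442 and was not analysed here.

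Outside the arms the hairpins have little in common. The stretches between the arms are 22 bases in Mir129-1 and 21 in Mir129-2, and they share no run longer than 3 bases. Folded with RNAfold, 16 of the 21 bases of the 5p arm paired with the 3p arm in each hairpin, at a minimum free energy of -31 kcal/mol for Mir129-1 and -48 kcal/mol for Mir129-2.

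The mature arms follow, with the seed of the 5p arm in capitals and, in the 3p arms, the base at which they differ. The stretch of Mir129-1 is the one that aligns with miR-129-2-3p.
miR-129-5p: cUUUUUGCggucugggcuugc
Mir129-1 3p stretch: aagcccuuaccccaaaaagUau
miR-129-2-3p: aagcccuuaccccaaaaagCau

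The 5p arm is identical in both hairpins, so no read of it can be placed at a gene by sequence. In the table of RPM (reads scaled to the library, as CPM) that the authors deposited per precursor, miR-129-5p was divided evenly, with 49.995% to 50.029% of its RPM on mir-129-1. The 3p arms differ at 1 of 22 positions, U20C, counted from the 5′ end with the Mir129-1 base first. Their seeds are the same, AGCCCUU, and none of the other mature miRNAs in the RefSeq table (1679 names in all) has it. The 5p seed, UUUUUGC, is likewise shared with none of them.

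miR-129-5p was among the abundant miRNAs of these colonies, ranking 9 by its mean of 25811 CPM over the 6 libraries. With TGFβ it had 4385, 5470 and 10939 reads at days 2, 4 and 8, against 3466, 10542 and 13807 reads with vehicle. Scaled to library totals, that was 24514, 11897 and 7882 CPM with TGFβ, against 31881, 45419 and 33274 CPM with vehicle. Each TGFβ library lay below each vehicle library, and the highest level was 5.76 times the lowest. The neighbouring levels of the vehicle libraries of days 2 and 8 did not differ beyond their exact 95% binomial intervals (30845 to 32943 and 32731 to 33825 CPM), and no other neighbours in the order had overlapping intervals.

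In rank, miR-129-5p stood at 11, 19 and 29 with TGFβ at days 2, 4 and 8, against 11, 3 and 10 with vehicle. In the vehicle library of day 4 it stood next below miR-214-3p (67676 CPM) and just above let-7b-5p (42442 CPM). In the vehicle library of day 8 it lay between miR-6243 (34236 CPM) and miR-21a-5p (33007 CPM), the growth-associated miRNA that led the ranking by mean. In the TGFβ library of day 8 its neighbours were miR-222-3p (8256 CPM) and miR-5099 (7752 CPM). At days 2 and 4 with TGFβ it lay below let-7c-5p (26717 CPM) and miR-151-3p (12580 CPM) and above miR-423-3p (24257 CPM) and miR-24-3p (10811 CPM). In the vehicle library of day 2 it lay between miR-125a-5p (32369 CPM) and let-7c-5p (27337 CPM).

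miR-129-2-3p, the 3p arm of the chromosome 2 gene, was the second most abundant arm, with a mean of 5624 CPM and rank 42. It had 391, 1992 and 5020 reads with TGFβ, against 708, 1404 and 4585 with vehicle. The levels were 2186, 4332 and 3617 CPM with TGFβ at days 2, 4 and 8, against 6512, 6049 and 11050 CPM with vehicle. All 3 TGFβ libraries again lay below all 3 vehicle libraries, but here the vehicle library of day 8 was the highest, not that of day 4. The intervals of the vehicle libraries of days 2 (6043 to 7009 CPM) and 4 (5738 to 6373 CPM) overlapped, and no others next to each other did.

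miR-129-1-3p, the 3p arm of the chromosome 6 gene, was scarce, with 202 reads in all libraries together and a mean of 91.9 CPM. It had 5, 32 and 57 reads with TGFβ, against 16, 23 and 69 with vehicle. In CPM this was 28.0, 69.6 and 41.1 with TGFβ at days 2, 4 and 8, against 147, 99.1 and 166 with vehicle. The TGFβ libraries lay below the vehicle libraries, yet every neighbour in the order had an overlapping interval. On library totals 18.5% of the 373 miRNAs averaging 10 CPM or more had this order of all TGFβ below all vehicle, and 6.43% the opposite one. With the trimmed mean of M-values (TMM) scaling used for the comparisons, the 3 arms kept the order. Of the 373 miRNAs, 8.31% then had it, against 12.3% with the opposite one. For both 3p arms the order then rests on day 4 gaps within counting error. miR-129-2-3p stood at 5176 TMM-scaled CPM with TGFβ and 5199 with vehicle, and miR-129-1-3p at 83.1 and 85.2.

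**Figure D1:**
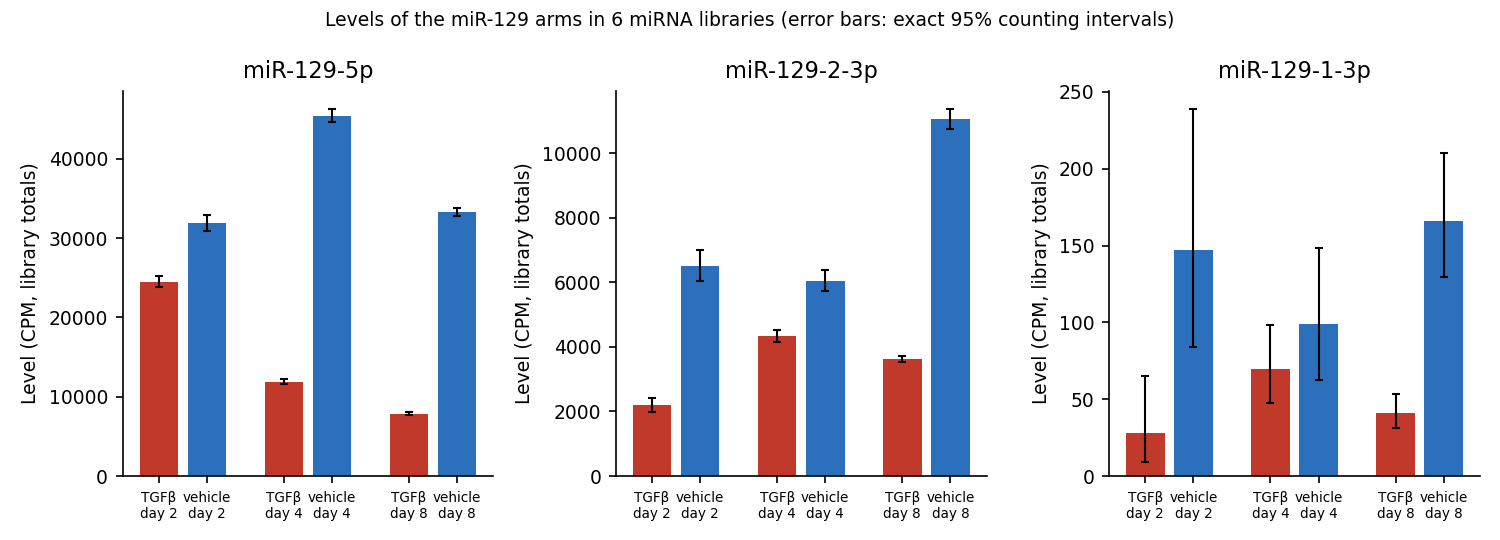
Levels of miR-129-5p, miR-129-2-3p and miR-129-1-3p in CPM of library totals, 1 bar per library with TGFβ (red) left of vehicle (blue) at each day; error bars are exact 95% binomial intervals for counting error. The 5p arm was highest in the vehicle library of day 4 at 45419 CPM and lowest in the TGFβ library of day 8 at 7882 CPM, while miR-129-2-3p was highest in the vehicle library of day 8 at 11050 CPM.

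The 5p arm gave most miR-129 reads in every library, but its share varied widely. It was 91.7%, 73.0% and 68.3% with TGFβ at days 2, 4 and 8, against 82.7%, 88.1% and 74.8% with vehicle. The exact 95% intervals, 90.9 to 92.5, 72.0 to 74.0 and 67.6 to 69.0 with TGFβ against 81.5 to 83.9, 87.5 to 88.7 and 74.2 to 75.4 with vehicle, did not overlap within any day. The 3 libraries with the most reads (TGFβ at day 8, TGFβ at day 4 and vehicle at day 8) had the 3 lowest shares. The part of depth in the arm balance was not tested.

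The arm share of miR-129 was less one-sided than that of most miRNAs compared, and it spanned more percentage points. Of 57 other miRNAs with both arms listed and at least 1000 CPM together, 24 had a mean 5p share above 90%, 21 below 10% and 12 between. Means inside the range that miR-129 spanned were seen in 2 of the 57. miR-129, at a mean of 79.8%, ranked 27 of 58. The highest mean shares, 99.965% to 99.997%, were those of miR-99a, miR-100, miR-1198, miR-21a and miR-30d. The 5p share of miR-129 spanned 23.4 percentage points over the libraries, against a median span of 1.96 points in 55 other pairs with at least 100 reads in each library. Of these, 5 (9.09%) spanned as much or more, with miR-27a at 36.5 points. A share close to either end of the scale has little room to span points. Whether the wide span goes beyond what the less one-sided share allows was not tested.

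The arm ratio moved in opposite directions at day 2 and at the later days. At day 2 the TGFβ library had 11.1 reads of 5p per read of 3p, against 4.79 with vehicle, a ratio of 2.31 (95% exact interval 2.03 to 2.64). At day 4 it was 2.70 with TGFβ and 7.39 with vehicle (ratio 0.366, 0.339 to 0.395), and at day 8 2.15 with TGFβ and 2.97 with vehicle (0.726, 0.693 to 0.761). These ratios do not depend on how libraries are scaled. Among other miRNAs with at least 20 reads of each arm in both libraries, 1 of 18 (5.56%) shifted by as much in either direction at day 2. The like counts were 4 of 31 (12.9%) for day 4 and 39 of 50 (78%) for day 8.

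**Figure D2:**
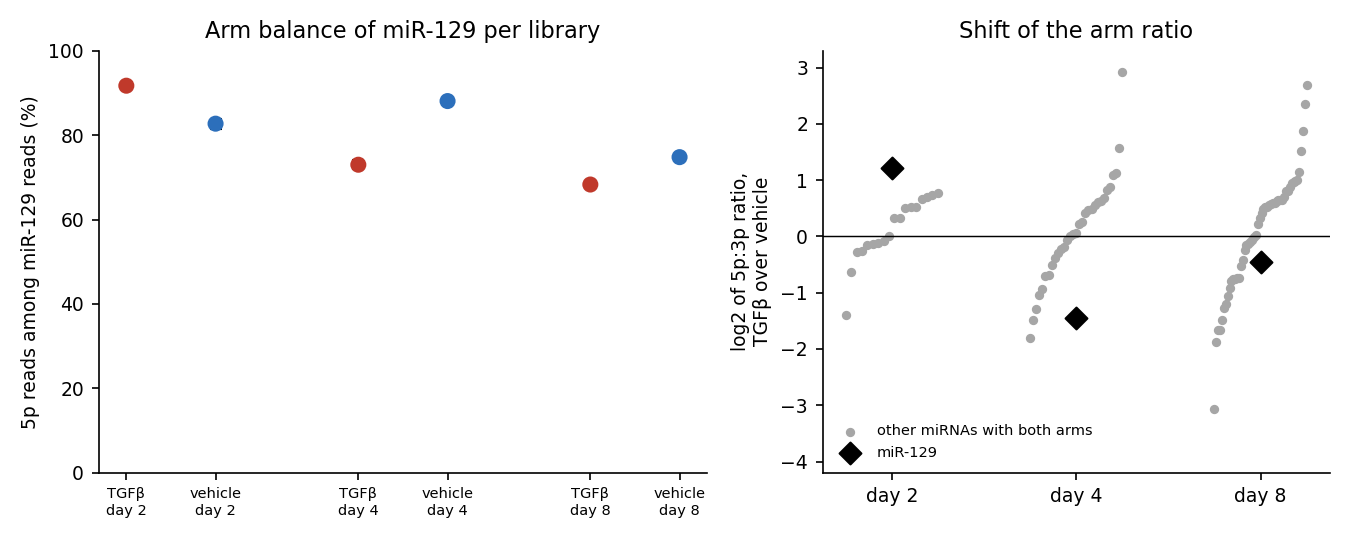
Left, percent of miR-129 reads from the 5p arm per library with exact 95% intervals, mostly smaller than the points (TGFβ in red, vehicle in blue); right, log2 of the 5p to 3p ratio of TGFβ over vehicle at each day for miR-129 (diamonds) and other miRNAs with both arms counted (grey, sorted). miR-129 lay above every other miRNA at day 2 and below 0 at days 4 and 8.

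Almost all 3p reads were counted under the arm of the chromosome 2 gene. The base that each read carried was not examined here. miR-129-1-3p made up 1.26%, 1.58% and 1.12% of the 3p reads with TGFβ at days 2, 4 and 8, against 2.21%, 1.61% and 1.48% with vehicle. Pooled over the libraries it was 202 of 14302 reads, or 1.41% (1.23% to 1.62%), and the intervals of 6 of 6 libraries held that share. The 3p arms differ by the single base given above, so miR-129-1-3p is uncertain as a separate miRNA. The authors' deposited table placed 22.5 reads of it in the vehicle library of day 4 and 68.5 in that of day 8, once RPM is turned back into reads, which are not whole reads; the deposited counts were 23 and 69.

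The TGFβ response of the arms was compared within each day. Ratios were taken of TMM-scaled counts, with exact conditional binomial 95% intervals, and a log2 change of 1 or more was counted as a call. By this rule 2 of 3 arms were lower at day 2, 1 of 3 was lower at day 4, all 3 were lower at day 8, and none was higher. The calls of days 2 and 8 include miR-129-1-3p, which is uncertain as a separate miRNA. At day 2 it had 5 reads with TGFβ and 16 with vehicle. Over all miRNAs averaging 10 CPM or more, 14.1%, 17.7% and 21.6% were lower by a log2 change of 1 or more at days 2, 4 and 8, and 11.9%, 21.5% and 20.2% were higher. This balance depends on the scaling: 79 were higher and 65 lower at day 4 with TMM, 70 and 79 with DESeq2 size factors, and 50 and 96 with library totals. With library totals, 33 were higher and 82 lower at day 2, and 54 and 101 at day 8. The TGFβ library was the deeper one on each day, and the part of depth in these differences was not tested.

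miR-129-5p stood at 25935 TMM-scaled CPM with TGFβ and 28129 with vehicle at day 2, a ratio of 0.922 (0.882 to 0.964). At day 4 it stood at 14212 with TGFβ and 39038 with vehicle, 2.75-fold lower (2.66 to 2.84). At day 8 it stood at 9099 with TGFβ and 30431 with vehicle, 3.34-fold lower (3.26 to 3.43). The log2 changes of -0.12, -1.46 and -1.74 placed it at 166 of 362, 34 of 368 and 23 of 361 miRNAs counted from the most negative change.

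miR-129-2-3p was lower at days 2 and 8. At day 2 it stood at 2313 TMM-scaled CPM with TGFβ and 5746 with vehicle, 2.48-fold lower (2.19 to 2.82). At day 4 it stood at 5176 with TGFβ and 5199 with vehicle, a ratio of 0.995 (0.929 to 1.07) that was not separable from 1 at this depth. That level day 4 value rests on TMM scaling: library totals gave a ratio of 0.716 (0.669 to 0.767) and DESeq2 size factors 0.885 (0.826 to 0.948). At day 8 it stood at 4176 with TGFβ and 10105 with vehicle, 2.42-fold lower (2.32 to 2.52). Day 2 was thus the day on which the 3p arm was lower and the 5p arm nearly level, and day 4, with TMM scaling, the day on which the 5p arm was lower and the 3p arm level.

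miR-129-1-3p was lower at days 2 and 8 and near a ratio of 1 at day 4, as miR-129-2-3p was. It was 4.39-fold lower at day 2 (1.54 to 15.3, from 5 reads with TGFβ and 16 with vehicle), at a ratio of 0.976 at day 4 (0.554 to 1.75) and 3.21-fold lower at day 8 (2.23 to 4.64). Scaling by library totals moved the median log2 change of all miRNAs by -0.22, -0.48 and -0.33 at days 2, 4 and 8. Relative to the median of all miRNAs, the log2 changes at the 3 days were -0.08, -1.62 and -1.75 for miR-129-5p, -1.27, -0.17 and -1.28 for miR-129-2-3p and -1.94, -0.20 and -1.60 for miR-129-1-3p.

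**Figure D3:**
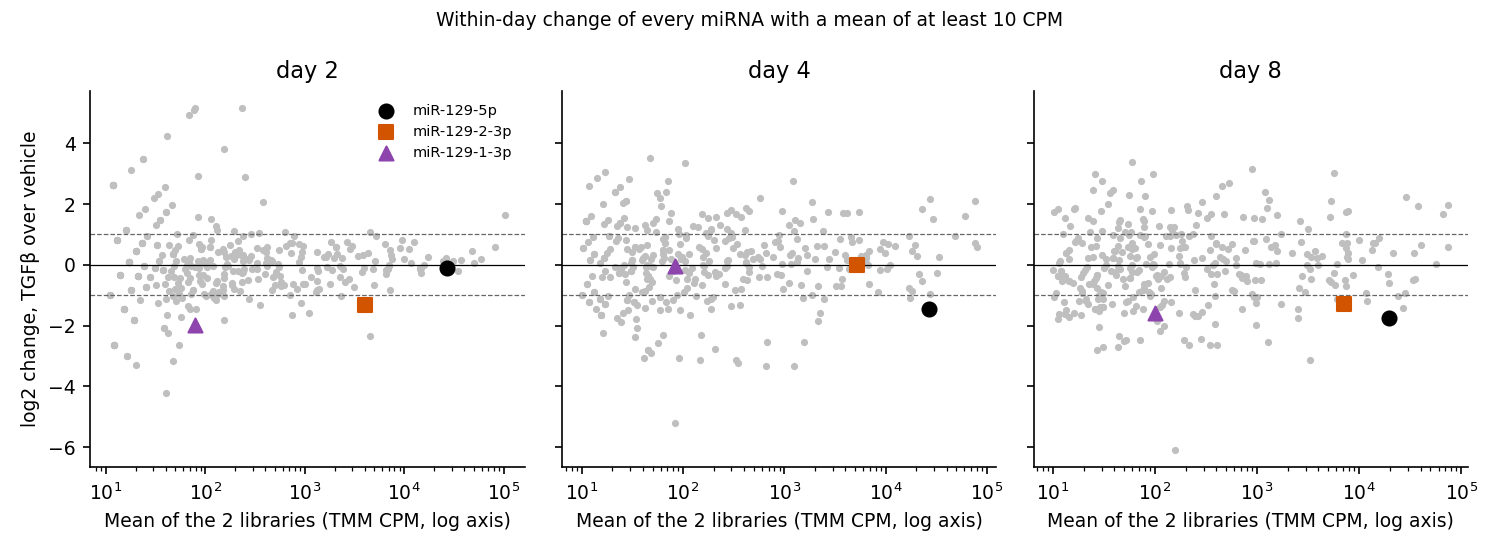
Log2 change of TGFβ over vehicle against the mean level of the day's libraries (TMM-scaled CPM, log axis) for miRNAs averaging 10 CPM or more, 1 panel per day, dashed lines at a change of 1 either way. miR-129-5p lay near 0 at day 2 and at -1.46 and -1.74 at days 4 and 8, while miR-129-2-3p lay at -1.31, -0.01 and -1.27.

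Averaged over the days, none of the arms passed the test that the design allows. The edgeR quasi-likelihood fit over all 6 libraries, with day as a factor, treats the days as repeats and sets an effect common to them against its variation between days. miR-129-5p had a mean log2 change of -1.11 ± 0.33 (SE; Benjamini-Hochberg adjusted p = 0.0980, edgeR), and was lower in 3 of 3 days. miR-129-2-3p had -0.87 ± 0.34 (adjusted p = 0.141, edgeR) and miR-129-1-3p -1.21 ± 0.54 (adjusted p = 0.174, edgeR). Of 309 miRNAs tested, 6 (1.94%) were called, and 89 had an unadjusted p under 0.05. The unadjusted edgeR values were 0.00865 for miR-129-5p, 0.0314 for miR-129-2-3p and 0.0522 for miR-129-1-3p. The call depended on the processing: 5 of 8 alternative fits called miR-129-5p, with adjusted p between 0.00237 (edgeR without day 2) and 0.599 over the 8.

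Over time the arms parted as well. With TGFβ, miR-129-5p was 1.82-fold lower at day 4 than at day 2 (95% interval 1.75 to 1.90, TMM-scaled) and 1.56-fold lower at day 8 than at day 4 (1.51 to 1.61). With vehicle it was 1.39 times the day 2 level at day 4 (1.34 to 1.44) and 1.28-fold lower at day 8 than at day 4 (1.25 to 1.32). miR-129-2-3p with TGFβ was 2.24 times the day 2 level at day 4 (2.01 to 2.501) and 1.24-fold lower at day 8 than at day 4 (1.18 to 1.31). With vehicle it was 1.11-fold lower at day 4 than at day 2 (1.01 to 1.21; 0.982 to 1.18 on library totals) and 1.94 times the day 4 level at day 8 (1.83 to 2.06). These intervals cover counting error alone.

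Between days 8 and 2, averaged over treatment, the same fit gave -0.75 ± 0.40 for miR-129-5p (log2, SE; adjusted p = 0.248, edgeR) and 0.83 ± 0.41 for miR-129-2-3p (adjusted p = 0.204, edgeR). miR-129-1-3p had 0.35 ± 0.66 (adjusted p = 0.732, edgeR). None passed the threshold of 0.05, which 6.8% of the 309 miRNAs did. The difference between the arms themselves was not tested.

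Over the 6 libraries, the miRNAs most like miR-129-5p were not its own 3p arms. Likeness was Pearson's r of log2 TMM-scaled CPM, given as a description over 6 libraries that share treatments and days. Among 372 other miRNAs averaging 10 CPM or more, let-7d-5p (0.99), let-7b-5p (0.97), miR-744-5p (0.96), miR-877-5p (0.96), miR-351-3p (0.95), miR-193b-5p (0.94), miR-5126 (0.94) and miR-1981-5p (0.94) came first. miR-129-1-3p ranked 108 (r = 0.39) and miR-129-2-3p 134 (r = 0.23). For miR-129-2-3p, by contrast, the closest of the 372 was miR-129-1-3p (r = 0.94), and miR-129-5p ranked 155. The 3p arms differ by a single base and miR-129-1-3p is uncertain as a separate miRNA. This r therefore does not show that both genes vary together.

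The closest ones are given by library. let-7d-5p, of the growth-restraining let-7 family, stood at 3567, 2623 and 2423 CPM with TGFβ at days 2, 4 and 8, against 4599, 5071 and 4246 CPM with vehicle. let-7b-5p stood at 30457, 15744 and 12691 CPM with TGFβ, against 42192, 42442 and 43001 CPM with vehicle. miR-744-5p stood at 12953, 9430 and 6291 CPM with TGFβ, against 16860, 27871 and 18330 CPM with vehicle. In each of these, the TGFβ level was lower at each later day, and all TGFβ libraries lay below all vehicle libraries. Of the other miRNAs named as most alike, miR-877-5p, miR-351-3p and miR-193b-5p kept the latter order on library totals. For miR-351-3p it rested on 72.7 CPM with TGFβ and 73.6 CPM with vehicle at day 2, from 13 and 8 reads. With TMM scaling miR-877-5p and miR-351-3p lost the order, and the log2 change of miR-351-3p at day 2 was 0.23. miR-5126 and miR-1981-5p did not have it on library totals: at day 2 they stood at 101 and 3209 CPM with TGFβ, against 82.8 and 2668 CPM with vehicle.

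**Figure D4:**
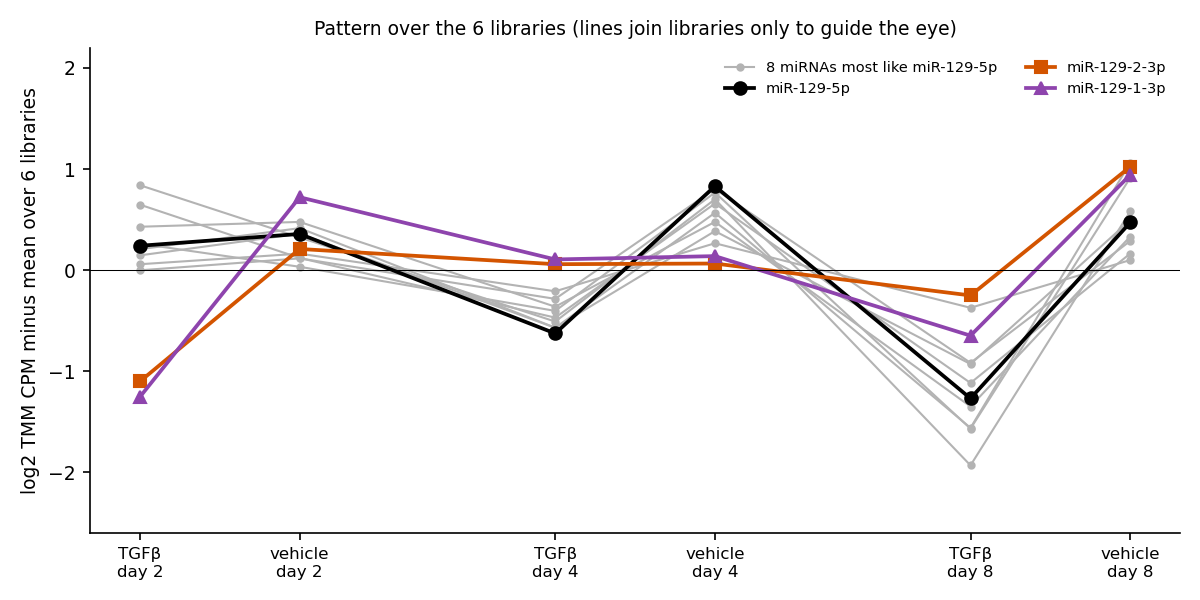
Log2 TMM-scaled CPM of each miR-129 arm and of the 8 miRNAs most like miR-129-5p (grey), less its mean over the libraries; TGFβ stands left of vehicle at each day. The 3p arms moved together and were lowest in the TGFβ library of day 2, where miR-129-5p lay above its mean.

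miR-129-5p, but not miR-129-1-3p (mean 91.9 CPM), stood well above the other nerve-linked miRNAs. Of 15 such miRNAs, 14 were listed, 9 had a read in some library and 4 to 7 in each. miR-124-3p, the main neuronal miRNA, had no read in any library, nor did miR-137-3p, miR-153-3p, miR-338-3p or miR-488-3p. A count of 0 allows up to 16.8, 6.52 and 2.16 CPM in the TGFβ libraries of days 2, 4 and 8, against 27.6, 12.9 and 7.23 CPM in the vehicle libraries (3 counts each). miR-138-5p, miR-212-3p, miR-134-5p, miR-383-5p and miR-9-3p had between 1 and 8 reads in all.

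The summed level of the listed nerve miRNAs was 2544, 1727 and 2112 CPM with TGFβ at days 2, 4 and 8, against 2695, 5049 and 5051 CPM with vehicle. miR-129-5p alone was 9.64, 6.89 and 3.73 times that sum with TGFβ, against 11.8, 8.99 and 6.59 times with vehicle. The largest part of the sum in each library (47.3% to 80.0%) was miR-218-5p, a motor neuron miRNA also made with the Slit genes, at 1202, 926 and 1178 CPM with TGFβ against 1665, 3895 and 4039 CPM with vehicle. The rest was mainly miR-128-3p (mean 593 CPM), miR-9-5p (406 CPM) and miR-132-3p (40.9 CPM). miR-9-5p, found in neural progenitors, stood at 475, 346 and 475 CPM with TGFβ, against 377, 371 and 395 CPM with vehicle, and so did not follow miR-129-5p.

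**Figure D5:**
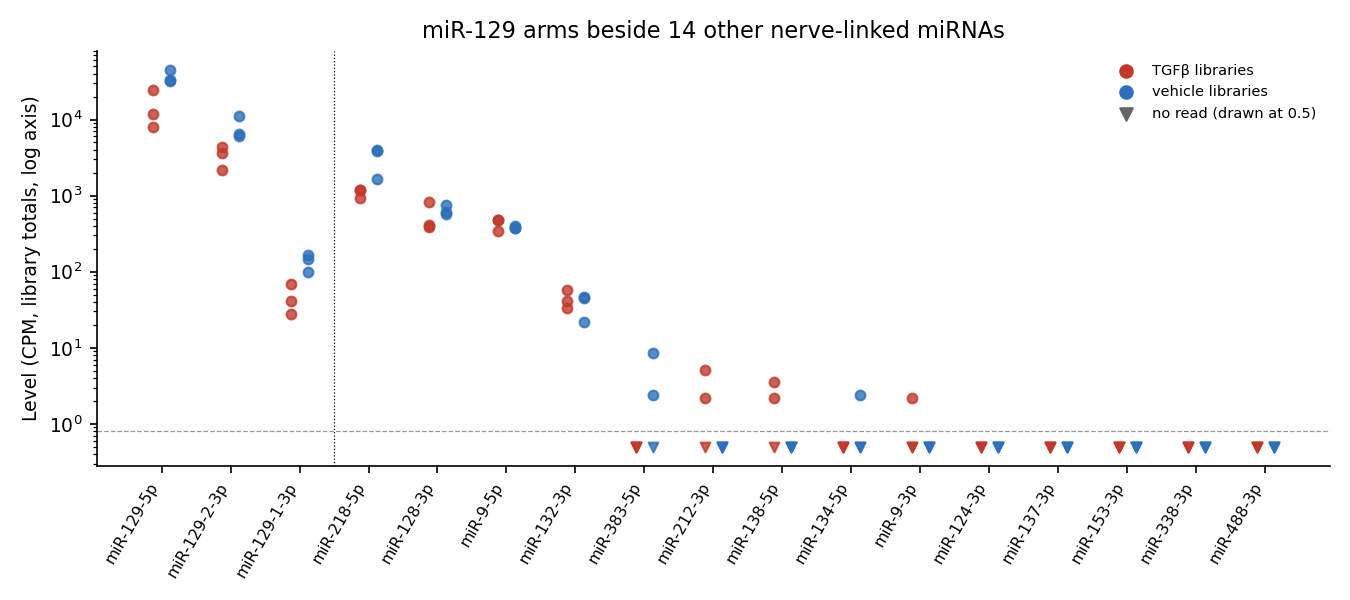
Level of the miR-129 arms and of the 14 other listed nerve-linked miRNAs in each library (CPM of library totals, log axis; TGFβ in red left of vehicle in blue; triangles mark libraries with no read). miR-129-5p was above every other miRNA shown in every library, and 5 miRNAs, miR-124-3p among them, had no read.

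mRNA was available as 1 ratio per gene and day, in tables of 998 genes a day (499 above 1 and 499 below), with no direction named in the tables and no scaling stated, so a gene outside them is not shown to be unchanged. Together they list 7.48% of the 21924 protein-coding gene symbols of GENCODE M21, 1641 in all. Of 24 neuronal and glial mRNAs, 2 (8.33%) were listed at any day, a share near that of all genes: the authors' deposited table gave 0.0667 for the glutamate transporter gene Slc17a7 at day 2 and 5.47 for the neuronal tubulin gene Tubb3 at day 4. Of 10 mRNAs reported as miR-129-5p targets in other systems, 2 (20%) were listed, too few for a comparison with that share. The authors' deposited table gave 3 for the potassium channel gene Kcna1 at day 2 and 0.0740 for the calcium pump gene Atp2b4 at day 8. Lep, Ttc17 and the other close neighbours of the hairpins were in none of the tables. Of the 3 nearest protein-coding genes on each side, Lrrc4c alone was listed, 2077 kb from Mir129-2. The authors' deposited table gave it ratios of 9.31 (day 2), 21 (day 4) and 9.82 (day 8). No read counts came with the mRNA ratios, so how many reads each rests on is unknown here.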

How the data were processed

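Per the files deposited by the authors, the first table holds read counts per mature miRNA in 6 libraries, with no normalization. A second deposited table holds RPM per pair of mature miRNA and precursor, and 3 deposited tables hold mRNA ratios (fold changes). Per the submitters' processing notes, edgeR 3.9 and mm10 were used, with no role stated; which aligner and counter were run was not given in the sources used here. No molecular identifiers are named, and reads without them do not count molecules, so intervals and floors (3 counts for 0) cover counting error only.

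Levels used library totals. Contrasts used TMM factors (0.838 to 1.17) after edgeR's expression filter, run under R 4.3.3 (edgeR 4.0.16, limma 3.58.1). Log2 changes used a prior count of 2. Tests were edgeR quasi-likelihood fits with day and treatment, adjusted over 309 miRNAs at 0.05; the fit was tested on simulated data. Alternatives were library totals, DESeq2 size factors, DESeq2 1.42.0, no filter, leaving out a day, no day term, a prior count of 0.5 and other minimum levels. Folding used RNAfold 2.7.2. Sequences came from RefSeq, where 2 of 3 members matched by name, and gene positions from GENCODE M21 (GRCm38, the same assembly as mm10).

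The members, lists and tests were chosen with earlier results of these data known. The named miRNAs were the members, the 8 with the highest r to miR-129-5p, its neighbours in rank, the nerve-linked list and the 5 highest 5p shares; named mRNAs were listed members of the neuronal and target lists and the genes next to the hairpins. miR-27a lies outside this rule and was named after its value was seen.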

Additional observations from a re-analysis of the deposited data

Results flagged for a closer look

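The 5p to 3p ratio of miR-129 under TGFβ relative to vehicle was 2.31 at day 2, against 0.366 at day 4 and 0.726 at day 8: the library pair of day 2 moved one way and those of the later days the other. Each day has 1 library per condition, and the difference between the days was not tested.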

How the results depend on the processing

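The fit sets TGFβ against vehicle within days, since day is a term in it; with no day term 4 miRNAs were called. The labels carry no replicate numbers, so no other block was fitted. Of 109 alternative values for 38 results, 70 were counted as unchanged. For tests this meant the same side of the threshold. For within-day changes, levels and 5p shares it meant a value within the counting interval. Numbers of miRNAs had to stay within a set fold of the main value, and ranks had to be equal. Ranks and 5p shares could not move beyond rounding, since scaling divides all miRNAs of a library by 1 factor. No direction reversed in the tests and within-day changes. The cause of the values that were not counted as unchanged was not tested. miR-129-5p was called at -1.48 (log2) with library totals, -1.20 with DESeq2 size factors, -1.11 with no filter, -1.60 without day 2 and -1.16 in DESeq2; without day 4, without day 8 and with no day term it was not. miR-129-2-3p was called at -1.22 with library totals and -0.95 with DESeq2 size factors, and miR-129-1-3p at -1.57 with library totals. The count of 6 called miRNAs became 58 with library totals, 58 with DESeq2 size factors, 46 with no filter, 29 in DESeq2, 109 without day 2, 2 without day 4 and 3 without day 8. For day 8 against day 2, 21 became 54, 58, 62 and 52 in the first 4 of these, and 13 without day 4. Within days 2, 4 and 8, library totals gave miR-129-5p log2 changes of -0.38, -1.93 and -2.08 and miR-129-2-3p -1.57, -0.48 and -1.61. DESeq2 size factors gave miR-129-5p -1.63 and -1.79 at days 4 and 8, and miR-129-2-3p -0.18 at day 4. In TMM-scaled CPM the level of miR-129-5p was 25935, 14212 and 9099 with TGFβ and 28129, 39038 and 30431 with vehicle. Ranks within a library cannot change under such scaling. The miRNAs past a log2 change of 1, 94, 144 and 151 at days 2, 4 and 8, numbered 28, 61 and 76 at a mean of at least 100 CPM, and 212 at day 2 with no filter. Depth limits miR-129-1-3p, which had 5 to 69 reads per library.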
